A study of Mus musculus with 12 samples.

Results

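The 10 genes described here are 4 ligands of the bone morphogenetic protein (BMP) family (Bmp2, Bmp4, Bmp5 and Bmp7), the secreted BMP antagonist Grem1, and 5 genes that BMP signalling switches on in many tissues (Id1, Id2, Id3, Msx1 and Msx2). They were chosen by name, with earlier results of these data known. A gene's probe sets were those to which the platform annotation gives exactly its symbol, and the set with the highest mean log2 signal over all arrays stood for the gene. The 10 genes are among 18193 named genes, and they hold 18 of 45037 probe sets. Of these, 5 genes have 1 probe set and 5 have several, and the others served as a check. A set was tested where its mean log2 signal over the 12 arrays passed a signal of 7.52, which left 27022 sets, with 16 of the 18 sets and a set of each of the 10 genes among them.

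BMP ligands are secreted dimers of the TGF-beta superfamily that bind pairs of type I and type II receptor kinases. The receptors phosphorylate Smad1, Smad5 and Smad9, which enter the nucleus with Smad4 and switch on target genes. Id proteins lack a DNA-binding region and tie up the E proteins that basic helix-loop-helix factors need as partners. Msx1 and Msx2 are homeobox repressors of the early mesoderm, limb and neural border. In mouse embryonic stem cells a BMP signal, which serum can supply, works with the cytokine LIF to hold the undifferentiated state, in part through Id genes. Without LIF the same signal favours mesoderm and other non-neural fates.

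RNA came from D3 cells, an established mouse embryonic stem cell line, after 7 days in medium with 15% serum. The 4 groups of 3 arrays each were LIF (1000 units per ml), LIF plus lithium, LIF-free (neither added), and LIF-free plus lithium. Lithium salts inhibit the kinase GSK3 and are used to imitate a Wnt signal. The labels give its dose as 50 nM, far under the millimolar range in common use, and no measure of GSK3 was used here. The labels call the arrays biological replicates, and the design text speaks of independent experiments. Neither says whether a replicate number marks a shared culture or day, so p-values measure the spread between these arrays. The labels name no feeder layer. All 8 pluripotency markers (Pou5f1, Sox2, Nanog, Zfp42, Klf4, Esrrb, Tfcp2l1 and Dppa5a) had mean signals above the tested limit in each of the 4 groups. Median signal per array ran from 10.5 to 19.3. The Gapdh 3 prime to 5 prime signal ratio averaged 0.816 with LIF, 0.832 in LIF plus lithium, 0.764 in LIF-free and 0.783 in LIF-free plus lithium arrays, and that of actin 1.77, 1.75, 1.55 and 1.61. Both mean ratios were lower without LIF. Arrays with and without LIF overlapped in median signal, in the actin ratio and, with lithium, in the Gapdh ratio. The part of these measures in the results was not tested.

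RefSeq promoter windows, from 250 bases before to 50 after the gene start, were at hand for 7 of the 10 genes (Bmp4, Bmp5, Grem1, Id2, Id3, Msx1 and Msx2). The windows of 4 targets that were higher without LIF are shown, since these genes moved in the same direction in the same cultures. The build is GRCm38.p6, and the windows are Id2 (chr12:25096043-25096342, minus strand), Id3 (chr4:136143572-136143871, plus strand), Msx1 (chr5:37824536-37824835, minus strand) and Msx2 (chr13:53472731-53473030, minus strand). Each is printed 5′ to 3′ on the strand of its gene. Capitals mark matches to the GC-rich Smad1 and Smad5 element GGCGCC and to the Smad4 element CAGAC (read GTCTG on the other strand). They mark the general promoter element CCAAT (read ATTGG on the other strand) as well, and no marked matches overlap.
Id2: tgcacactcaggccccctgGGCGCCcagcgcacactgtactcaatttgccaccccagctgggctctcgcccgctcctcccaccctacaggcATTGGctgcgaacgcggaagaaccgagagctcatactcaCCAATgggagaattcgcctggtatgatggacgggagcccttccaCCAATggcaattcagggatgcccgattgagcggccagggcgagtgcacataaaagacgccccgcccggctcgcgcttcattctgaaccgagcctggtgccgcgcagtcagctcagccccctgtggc
Id3: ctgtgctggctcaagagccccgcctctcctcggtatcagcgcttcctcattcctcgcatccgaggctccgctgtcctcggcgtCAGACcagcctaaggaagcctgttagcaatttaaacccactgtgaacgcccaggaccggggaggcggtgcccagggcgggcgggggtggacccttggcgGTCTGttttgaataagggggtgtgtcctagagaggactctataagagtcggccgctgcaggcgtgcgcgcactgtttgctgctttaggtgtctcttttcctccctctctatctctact
Msx1: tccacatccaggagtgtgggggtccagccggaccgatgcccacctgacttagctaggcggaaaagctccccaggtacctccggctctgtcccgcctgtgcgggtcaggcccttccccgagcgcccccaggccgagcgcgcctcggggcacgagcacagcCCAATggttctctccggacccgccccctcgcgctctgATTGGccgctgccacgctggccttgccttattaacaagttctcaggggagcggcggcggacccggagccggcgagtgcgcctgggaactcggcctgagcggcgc
Msx2: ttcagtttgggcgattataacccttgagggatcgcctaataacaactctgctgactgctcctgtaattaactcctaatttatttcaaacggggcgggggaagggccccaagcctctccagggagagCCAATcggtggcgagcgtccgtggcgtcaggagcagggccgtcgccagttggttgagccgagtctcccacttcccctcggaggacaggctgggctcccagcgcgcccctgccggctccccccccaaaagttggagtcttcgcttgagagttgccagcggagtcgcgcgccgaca
Id2 has GGCGCC 1 time and CCAAT 3 times, and Id3 has CAGAC 2 times. Msx1 holds 2 matches to CCAAT and Msx2 holds 1, and the Smad elements are not among the letters of either window. Among all 32851 windows of this length in the table, 11.9% hold GGCGCC, 49.6% hold CAGAC and 37.4% hold CCAAT. The short motifs are therefore common, and a match is a description of the letters. The windows of Id2, Id3, Msx1 and Msx2 hold 21, 19, 29 and 22 CpG pairs, against a median of 7 over all windows. That of Grem1, a gene that passed in none of the main comparisons, holds 28 CpG pairs. It has GGCGCC 1 time, CAGAC 2 times and CCAAT 1 time, and the Bmp5 window has CAGAC 1 time. The Bmp5 window holds 4 CpG pairs and has a GC content of 43.3%, against 64% for Bmp4 and a median of 52.7%.

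**Figure D1:**
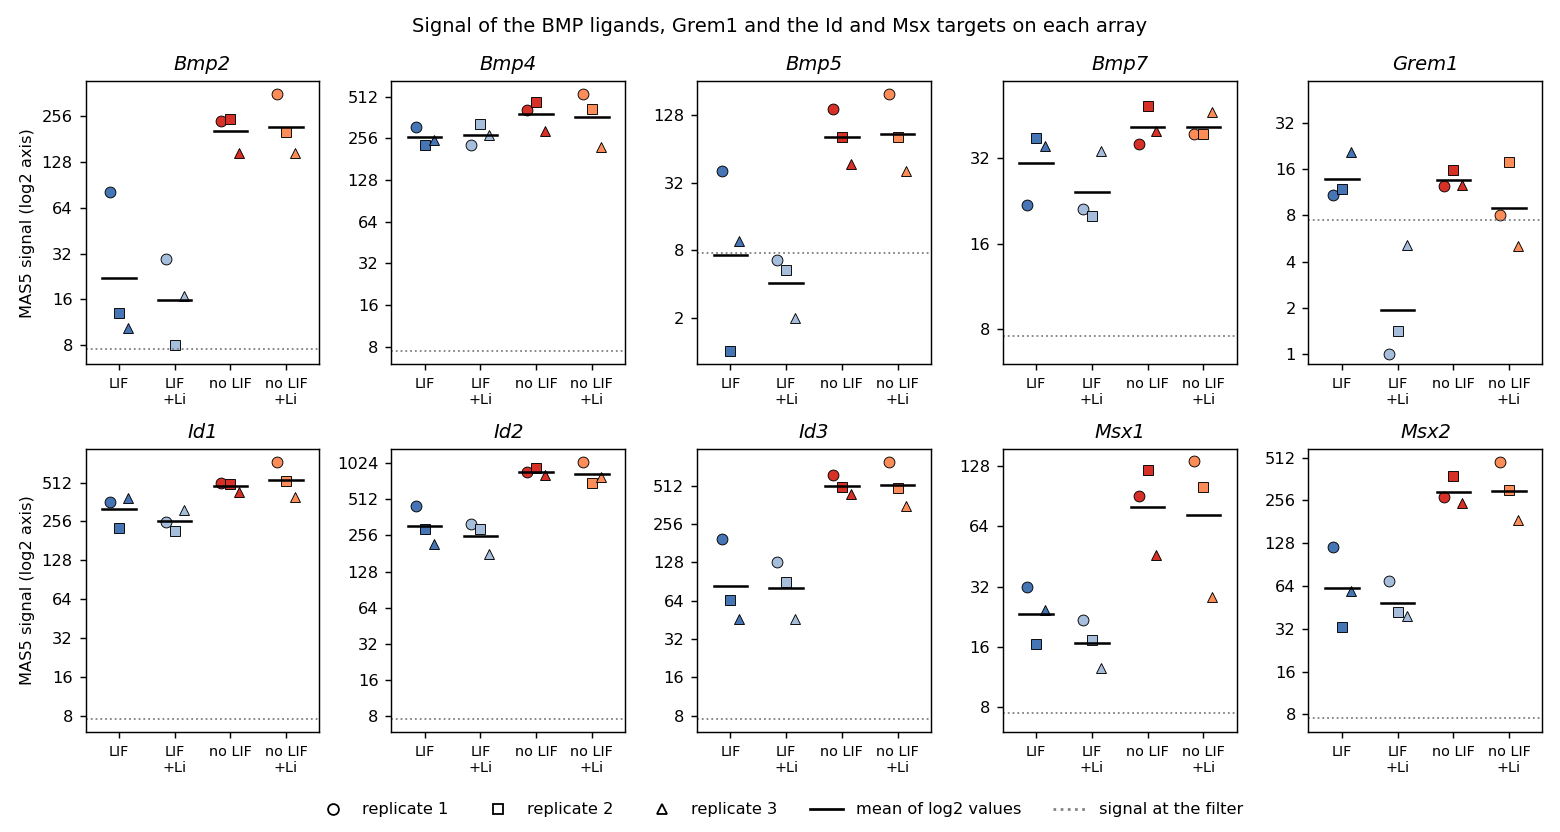
MAS5 signal of each gene's brightest probe set on each of the 12 arrays (log2 axis, values under 1 drawn at 1). Point shapes are replicates 1 to 3, bars the mean of the log2 values in each group of 3 arrays, and the dotted line the signal of 7.52 at the filter. The Id and Msx genes, Bmp2 and Bmp5 sit higher in both groups without LIF, and for Grem1 the LIF plus lithium arrays hold the lowest group mean.

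The first question was what LIF withdrawal did to these transcripts, without lithium and with it. The ligands Bmp2 and Bmp5 and the targets Id2, Id3, Msx1 and Msx2 had the largest log2 changes on average over both, from 1.61 for Id2 to 3.96 for Bmp5. Id1, Bmp4 and Bmp7 had smaller ones, of 0.50 to 0.82. Without lithium, 4 of the 10 genes rose (Bmp2, Id2, Id3 and Msx2) and 0 fell, by limma at an adjusted p under 0.05, where 5.4% of all tested probe sets rose and 3.91% fell. With lithium, 7 rose (those 4 with Bmp5, Id1 and Msx1) and 0 fell, where 7.53% of probe sets rose and 4.93% fell. On average over both, the same 7 genes rose and 0 fell, where 13.9% rose and 10.8% fell. With the replicate number as a block, Bmp5 and Msx1 rose without lithium as well (limma adjusted p = 0.00549 and 0.00498). The median log2 change of the 10 genes was 1.64 without lithium, 2.17 with lithium and 1.78 on average, while that of all tested sets was -0.07, 0.11 and 0.02. The 10 genes were chosen with earlier results of these data known. Their counts here and below are therefore descriptions, and no test of the list. The genes are counted once each by the brightest set, while the shares are over all tested sets, dimmer ones included.

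All 3 LIF-free values lay above all 3 LIF values in 7 of the 10 genes, where 13.8% of tested sets did so. In the cultures with lithium this held for 8 genes, where 19.9% of tested sets did so. Bmp5 in both groups with LIF and Grem1 in LIF plus lithium had mean log2 signals under the tested limit, and both passed the filter through their other groups. Their counts are therefore no support, and the size of their log2 changes rests on values near background. Scaling between arrays moved the background: 58.0% of all calls were higher without lithium as deposited and 83.1% after centring each array on its median, and with lithium 60.4% and 34.8%. After such centring the median over all tested sets was 0.13 without lithium and -0.23 with it. In total 2515 sets passed without lithium (5260 with the replicate number as a block) and 3368 with it. Leaving out LIF replicate 1 gave 3950 in the first comparison and leaving out LIF-free replicate 2 gave 1039. In the second, 1360 passed without LIF plus lithium replicate 3.

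Transcripts of several cell types moved with LIF beside these genes. Of 7 tested trophoblast markers, 7 rose on average and 0 fell, where 13.9% of all tested probe sets rose and 10.8% fell. The summed signal of the trophoblast markers was 3371 to 5528 in LIF, 2963 to 5044 in LIF plus lithium, 11051 to 13385 in LIF-free and 11079 to 13294 in LIF-free plus lithium arrays, with Elf5 under the limit in every group. These sums are mostly Krt8 and Krt18, with mean signals of 5447 and 5990 in LIF-free arrays. Those of Cdx2, Gata3 and Hand1 were 65.0, 53.3 and 52.5 there. Of 7 streak and mesoderm markers 6 rose and 0 fell on average, with summed signals of 138 to 304 in LIF, 134 to 218 in LIF plus lithium, 218 to 669.7 in LIF-free and 257 to 599 in LIF-free plus lithium arrays. Without lithium 0 of these markers rose, and with lithium 3 did. Eomes is in both this list and the trophoblast list. Mixl1, Kdr, Foxf1 and Hand2 had mean log2 signals under the tested limit in LIF plus lithium, and Mixl1 in LIF as well. They passed the filter through their other groups, and their part in these counts is no support. Of 8 pluripotency markers 0 rose and 7 fell, with summed signals of 16125 to 25138 and 19038 to 19497 in the groups with LIF (without and with lithium) and 10816 to 13448 and 9024 to 12956 in those without. Of 6 tested endoderm markers 3 rose and 0 fell (272 to 706 and 283 to 624 with LIF, 732 to 943 and 586 to 783 without), with Afp under the limit in every group. Of 5 tested fibroblast markers 3 rose and 1 fell on average (64.9 to 154 and 49.1 to 99.1 with LIF, 98.2 to 196 and 120.0 to 266 without). Without lithium 0 of them rose, and with lithium 1 did. Dcn and Lum stayed under the limit in every group. Ttr of the endoderm list, Col1a1 and Postn were under it in both groups with LIF, and Col3a1 in LIF plus lithium. These markers too passed the filter through their other groups, and their part in the counts is no support. Col1a1, Col3a1 and Postn had higher mean signals in both groups without LIF than in both with it, and Thy1 had lower ones. Of 6 tested neural markers 0 rose and 1 fell (436 to 549 and 416 to 565 with LIF, 301 to 367 and 268 to 337 without). The neural sums are mostly Stmn2, with mean signals of 375 in LIF and 212 in LIF-free arrays. The part of these cells in the results was not tested. In RNA from whole cultures, a change in the number of cells of a type and a change in RNA per cell cannot be told apart.

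Among the ligands, Bmp2, a ligand of the extraembryonic and cardiac mesoderm, had the largest log2 change among the genes that passed without lithium. Its signals were 80.9, 13.1 and 10.4 in LIF, 29.3, 8.01 and 16.8 in LIF plus lithium, 238, 247 and 147 in LIF-free, and 359.6, 199.9 and 145 in LIF-free plus lithium replicates 1, 2 and 3. Every array without LIF lay above every array with LIF, and LIF replicate 1 was the highest of those with LIF. The log2 change was 3.21 ± 0.67 (SE, n = 3 arrays per group) without lithium (limma adjusted p = 0.011), 3.79 ± 0.67 with lithium (adjusted p = 0.00365) and 3.50 ± 0.47 on average (adjusted p = 0.00022). The call without lithium ended when LIF replicate 2 was left out (adjusted p = 0.0575), as it did for LIF-free replicate 2 (adjusted p = 0.0515).

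Bmp5, a ligand of skeletal and limb condensations, had signals of 40.4, 0.937 and 9.61 in LIF and 6.59, 5.27 and 1.97 in LIF plus lithium. They were 144, 81.8 and 46.9 in LIF-free and 198, 81.6 and 41.1 in LIF-free plus lithium. All 6 arrays without LIF lay above the others, although LIF-free plus lithium replicate 3 was close to LIF replicate 1. The log2 change with lithium was 4.42 ± 1.04 (adjusted p = 0.0162), and that without lithium, 3.49 ± 1.04, missed the threshold (adjusted p = 0.0531) and passed it with the replicate block (adjusted p = 0.00549). Without lithium it passed after LIF replicate 1 was left out as well (log2 change 4.73, adjusted p = 0.00506). With any other single array left out it did not pass, at most at an adjusted p of 0.164 without LIF replicate 2. The call with lithium ended without LIF plus lithium replicate 3 (adjusted p = 0.0778), LIF-free plus lithium replicate 1 (adjusted p = 0.076) or LIF-free plus lithium replicate 2 (adjusted p = 0.0557). With 16 signal units added before the log, its average log2 change of 3.96 ± 0.74 (adjusted p = 0.00191) became 2.07 and passed as well.

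Bmp4, the ligand best known for supporting embryonic stem cells and for inducing mesoderm, was already bright with LIF. Its signals were 308, 230.3 and 249 in LIF and 228, 322 and 272 in LIF plus lithium, against 412, 469 and 291 in LIF-free and 536, 414 and 223 in LIF-free plus lithium. The groups overlapped: LIF-free replicate 3 lay among the arrays with LIF, and LIF-free plus lithium replicate 3 was the lowest of all 12 arrays. The log2 change did not pass without lithium (0.56 ± 0.28, adjusted p = 0.245), with lithium (0.44 ± 0.28, adjusted p = 0.355) or on average (0.50 ± 0.20, adjusted p = 0.0876). The 95% interval of the average ran from 0.07 to 0.92. It passed when LIF-free plus lithium replicate 3 was left out, both with lithium (log2 change 0.80, adjusted p = 0.0447) and on average (0.68, adjusted p = 0.0081). With any other single array left out, neither passed. Without LIF-free plus lithium replicate 1 the adjusted p was 0.811 with lithium and 0.204 on average.

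Bmp7, a ligand of kidney, eye and skeleton, was dim. Its signals were 21.9, 37.8 and 35.5 in LIF, 21.2, 20.0 and 33.9 in LIF plus lithium, 36.1, 49.0 and 39.8 in LIF-free, and 38.9, 39.1 and 46.6 in LIF-free plus lithium. LIF and LIF-free arrays overlapped, while the groups with lithium did not. The average log2 change of 0.59 ± 0.21 missed the threshold (adjusted p = 0.0532), with a 95% interval of 0.15 to 1.04. It passed when LIF plus lithium replicate 3 was left out (log2 change 0.71, adjusted p = 0.0301). With any other single array left out it did not pass, at most at an adjusted p of 0.126 without LIF-free replicate 2. The order of the 4 groups by mean signal differed between the ligands, but for each the groups that differ only by lithium were neighbours whose difference did not pass.

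Grem1 encodes Gremlin 1, which binds Bmp2, Bmp4 and Bmp7 outside the cell and blocks them. Its signals were 10.9, 11.9 and 20.6 in LIF and 0.246, 1.41 and 5.17 in LIF plus lithium. They were 12.5, 15.9 and 12.7 in LIF-free and 8.07, 17.8 and 5.05 in LIF-free plus lithium. All 3 LIF plus lithium values lay under the tested limit and under the other groups except for LIF-free plus lithium replicate 3. The log2 change on LIF withdrawal was -0.03 ± 0.69 without lithium (adjusted p = 0.986) and 2.22 ± 0.69 with lithium (adjusted p = 0.0521), and neither passed. The change with lithium passed when LIF plus lithium replicate 3 (adjusted p = 0.0264) or LIF-free plus lithium replicate 3 (adjusted p = 0.0398) was left out, and the average, 1.09 ± 0.49 (adjusted p = 0.124), passed without LIF plus lithium replicate 3 (log2 change 1.45, adjusted p = 0.0361). With any other array left out, neither passed. Without LIF-free plus lithium replicate 2 the adjusted p was 0.206 with lithium and 0.276 on average. With 16 signal units added, the change with lithium was 0.51.

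The Id genes are the classical early targets of BMP Smads. Id3 had signals of 196, 64.9 and 45.8 in LIF and 129.7, 89.8 and 46.0 in LIF plus lithium, and of 617, 497 and 439 in LIF-free and 789, 493 and 358 in LIF-free plus lithium. Its lowest array without LIF was above its highest array with LIF, and replicate 1 was the highest in every group. The log2 change was 2.62 ± 0.48 without lithium (adjusted p = 0.00609), 2.67 ± 0.48 with lithium (adjusted p = 0.00417) and 2.65 ± 0.34 on average (adjusted p = 0.000167).

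Id2, whose product is also expressed early in trophectoderm, had signals of 447, 291 and 218 in LIF, 319, 287 and 181 in LIF plus lithium, 862, 928 and 819 in LIF-free, and 1052, 703 and 782 in LIF-free plus lithium. The groups with and without LIF did not overlap. Its log2 change was 1.51 ± 0.26 without lithium (adjusted p = 0.00417), 1.71 ± 0.26 with lithium (adjusted p = 0.00187) and 1.61 ± 0.18 on average (adjusted p = 7.56e-05). No single array ended the 3 calls of Id2 or those of Id3 when left out.

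Id1, a direct target of BMP Smads in many cell types, had a smaller change. Its signals were 365, 228 and 389.7 in LIF, 252, 217 and 312 in LIF plus lithium, 509, 498 and 431 in LIF-free, and 742, 523 and 393.5 in LIF-free plus lithium. All 6 arrays without LIF lay above the 6 with it, by a small margin between LIF-free plus lithium replicate 3 and LIF replicate 3. The log2 change was 0.58 ± 0.24 without lithium, which did not pass (adjusted p = 0.157), 1.05 ± 0.24 with lithium (adjusted p = 0.0143) and 0.82 ± 0.17 on average (adjusted p = 0.00386). The call with lithium ended after median centring (log2 change 0.71, adjusted p = 0.134). It also ended without LIF plus lithium replicate 2 (adjusted p = 0.0644), LIF-free plus lithium replicate 1 (adjusted p = 0.0682) or LIF-free plus lithium replicate 2 (adjusted p = 0.0504).

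The Msx genes are induced by BMP in early mesoderm, limb bud and neural crest. Msx2 had signals of 120.5, 33.0 and 58.7 in LIF, 69.6, 42.1 and 39.3 in LIF plus lithium, 269, 378 and 247 in LIF-free, and 479, 301 and 187 in LIF-free plus lithium. The groups with and without LIF did not overlap. The log2 change was 2.25 ± 0.43 without lithium (adjusted p = 0.00708), 2.62 ± 0.43 with lithium (adjusted p = 0.00266) and 2.44 ± 0.30 on average (adjusted p = 0.000131). The mean over both of its probe sets gave 1.37 without lithium and no call (adjusted p = 0.0591).

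Msx1 had signals of 32.0, 16.5 and 24.4 in LIF, 21.7, 17.3 and 12.5 in LIF plus lithium, 90.6, 122 and 46.3 in LIF-free, and 135, 100.3 and 28.3 in LIF-free plus lithium. Within each lithium condition the groups did not overlap, but LIF-free plus lithium replicate 3 was under LIF replicate 1. Its log2 change was 1.77 ± 0.52 without lithium, which missed the threshold (adjusted p = 0.0514), 2.12 ± 0.52 with lithium (adjusted p = 0.0201) and 1.94 ± 0.37 on average (adjusted p = 0.00217). The first passed with the replicate block (adjusted p = 0.00498) and without LIF replicate 1 (adjusted p = 0.0386), LIF-free replicate 3 (adjusted p = 0.0434), LIF-free plus lithium replicate 1 (adjusted p = 0.0408) or LIF-free plus lithium replicate 3 (adjusted p = 0.0163). It did not pass with any other array left out, at most at an adjusted p of 0.188 without LIF-free replicate 2. The second ended without LIF plus lithium replicate 2 (adjusted p = 0.0598), LIF plus lithium replicate 3 (adjusted p = 0.0889), LIF-free plus lithium replicate 1 (adjusted p = 0.0955) or LIF-free plus lithium replicate 2 (adjusted p = 0.0904).

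**Figure D2:**
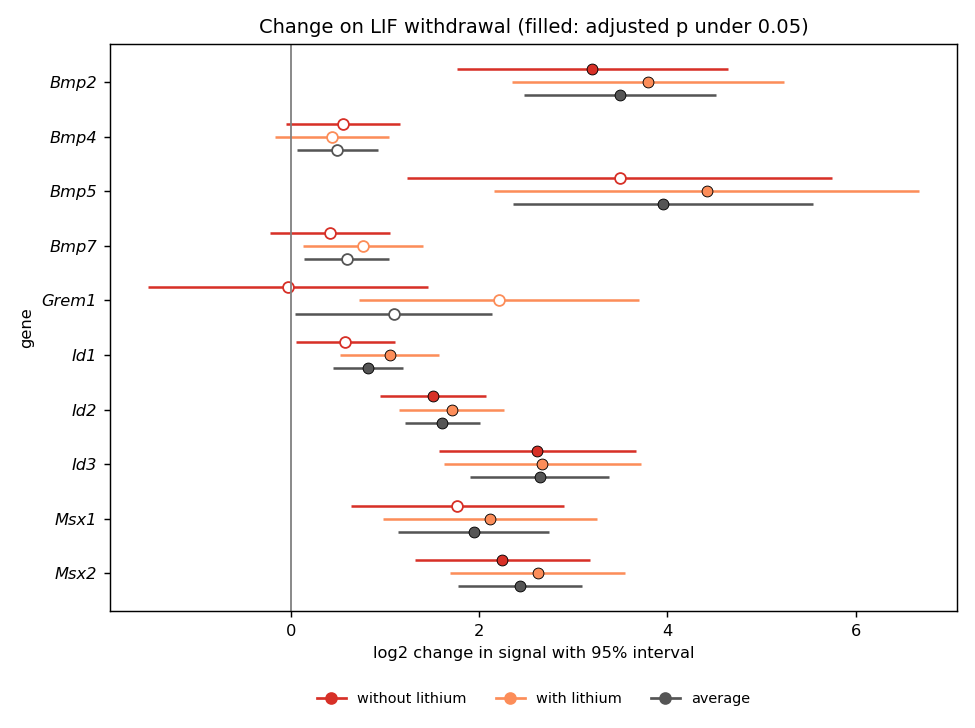
Log2 change in signal on LIF withdrawal for the 10 genes, without lithium, with lithium and on average (points), with 95% intervals from limma (lines). Filled points passed an adjusted p of 0.05; Bmp2, Id2, Id3 and Msx2 are filled in all 3, and Bmp4, Bmp7 and Grem1 in none.

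The other probe sets of 5 genes served as a check, and probes of different sets are not compared in level. For Id2 the set 1422537_a_at rose as well, from 88.1 ± 29.0 to 326 ± 36.3 without lithium and from 70.4 ± 18.0 to 383 ± 83.8 with it (mean signal ± SD, n = 3, average log2 change 2.19 ± 0.18, adjusted p = 1.74e-05). The dim set 1453596_at had an average log2 change of 0.81 ± 0.34 and did not pass (adjusted p = 0.0985). For Bmp5 the set 1421283_at rose on average (log2 change 2.95 ± 0.61, adjusted p = 0.00346), and 1421282_at was too dim to test. The 2 Msx genes each had a dimmer set that did not pass on average: 1417127_at of Msx1 (log2 change 0.65 ± 0.43, adjusted p = 0.316) and 1438351_at of Msx2 (log2 change 1.13 ± 0.41, adjusted p = 0.0646). The calls of Msx1 with lithium and on average therefore rest on 1448601_s_at, whose suffix marks probes shared by several transcripts. Neither set of Bmp7 besides the brightest passed: 1418910_at had an average log2 change of 0.32 ± 0.31 (adjusted p = 0.5) and 1432410_a_at was too dim to test.

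The second question was whether lithium changed these transcripts, with LIF and without it. By limma 0 of the 10 genes and 0 of 27022 probe sets (0%) passed with LIF, and the same counts, 0 and 0 (0%), held without LIF. At an unadjusted p under 0.05 there were 749 and 347 sets, with 1 of the 10 genes and 0. With LIF, the median log2 change of the 10 genes was -0.34, against -0.08 for all tested sets. Median centring moved the median of all tested sets to 0.29. The medians thus depend on the scaling between arrays and are descriptions.

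None of the 5 targets passed the test for lithium. For Id1 the log2 change with lithium was -0.31 ± 0.24 in cultures with LIF (95% interval -0.83 to 0.21) and 0.16 ± 0.24 in those without (-0.36 to 0.69). For Id2 the values were -0.26 ± 0.26 (-0.82 to 0.30) and -0.06 ± 0.26 (-0.62 to 0.50). For Id3 they were -0.04 ± 0.48 (-1.09 to 1.00) and 0.02 ± 0.48 (-1.03 to 1.06). With LIF the intervals of the Msx genes were -1.62 to 0.65 for Msx1 and -1.27 to 0.59 for Msx2. None of these intervals shows that lithium left the transcripts as they were.

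The ligand Bmp4 changed by 0.06 ± 0.28 with LIF (-0.54 to 0.67) and by -0.06 ± 0.28 without it (-0.67 to 0.54). For Bmp2 the interval with LIF was -1.94 to 0.95 and for Bmp5 -3.09 to 1.42. Grem1 was the gene with the smallest unadjusted p. Its 3 LIF plus lithium values lay under its 3 LIF values, with a log2 change of -2.84 ± 0.69 (limma unadjusted p = 0.00117, adjusted p = 0.999). The LIF plus lithium values were under the tested limit, and with 16 signal units added the log2 change was -0.73.

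**Figure D3:**
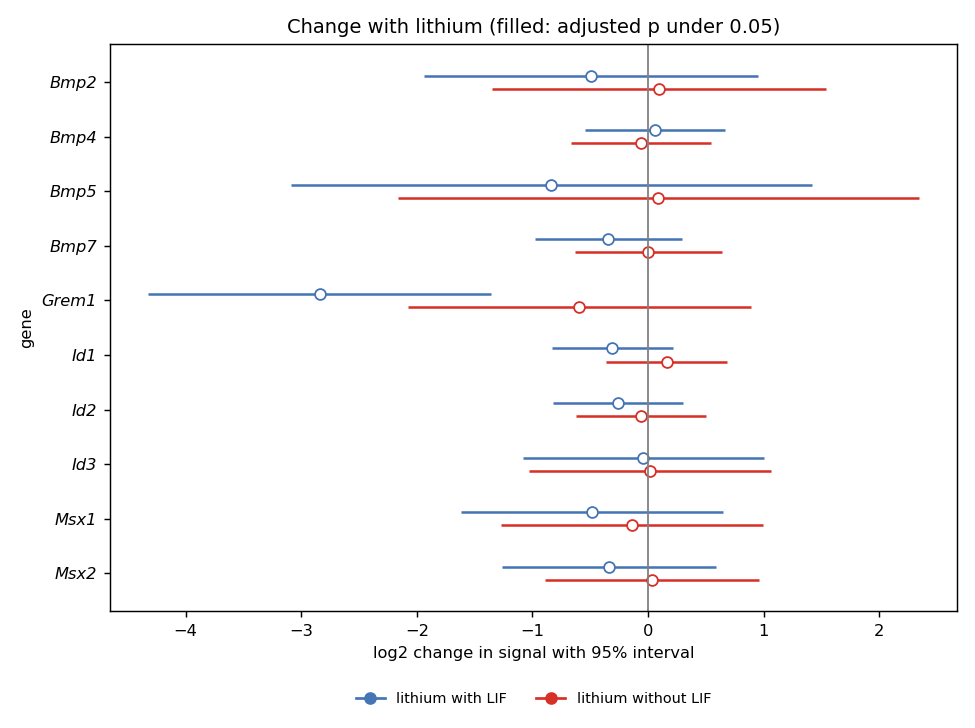
Log2 change in signal with lithium for the 10 genes, in cultures with and without LIF (points), with 95% intervals from limma (lines). No point is filled, since none passed an adjusted p of 0.05; the interval of Grem1 with LIF is the only one that leaves out 0, and its adjusted p was 0.999.

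The third question was whether lithium altered the response to LIF withdrawal, which the interaction tests. Of the 10 genes 0 passed, as did 0 of all tested sets (0%), with 666 sets and 1 of the genes at an unadjusted p under 0.05 by limma. That gene was Grem1, at 2.24 ± 0.97 (unadjusted p = 0.0381, adjusted p = 0.999). For Id1 the interaction was 0.47 ± 0.34 (95% interval -0.27 to 1.21), for Id3 0.06 ± 0.68 (-1.42 to 1.53) and for Bmp4 -0.12 ± 0.40 (-0.98 to 0.73). The larger count of genes that rose with lithium than without, 7 against 4, is therefore not a tested difference between the 2 conditions.

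Within groups, the order of the arrays differed between the 10 genes. Of replicates 1, 2 and 3 of LIF, the highest of the 3 arrays was replicate 1 for 7 genes, replicate 2 for 1 and replicate 3 for 2, and the lowest was replicate 1 for 2, replicate 2 for 5 and replicate 3 for 3. In LIF plus lithium the highest array was split 6, 1 and 3 over replicates 1, 2 and 3, and the lowest 2, 3 and 5. In LIF-free the highest was split 3, 7 and 0 and the lowest 2, 0 and 8, and in LIF-free plus lithium 8, 1 and 1 and 1, 1 and 8. These counts are a description of the arrays, with no test. The change within a replicate number varied too: for Bmp2 the LIF-free minus LIF difference was 1.55, 4.23 and 3.83 log2 units in replicates 1, 2 and 3. For Id1 it was 0.48, 1.12 and 0.15, and for Id3 it was 1.65, 2.94 and 3.26.

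The rest of the pathway was read from 57 further genes in 6 lists, of which 51 had a probe set and 39 were tested. These lists too were chosen with earlier results of these data known, so their counts are descriptions. On average over both lithium conditions 18 of the 39 genes rose and 4 fell, with a median log2 change of 0.48. Of all tested probe sets 13.9% rose and 10.8% fell on average, which is also the measure for the lists below. The falls were about as frequent as over all sets. Without lithium 7 of the pathway genes rose and 1 fell, where 5.4% of all tested sets rose and 3.91% fell. With the replicate block 16 passed, but more of all tested sets passed in that fit too, and these shares do not apply. With lithium 12 rose and 1 fell, where 7.53% of sets rose and 4.93% fell. These counts moved with single arrays, to 1 without LIF-free replicate 2 and 13 without LIF replicate 1 in the first, and to 2 without LIF-free plus lithium replicate 1 in the second. The average count was 18 to 22 with any 1 array left out.

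Of 10 tested receptors and co-receptors 4 rose and 1 fell on average. The type I receptors Acvr1 (log2 change 0.52 ± 0.12, adjusted p = 0.00629) and Bmpr1a (0.58 ± 0.13, adjusted p = 0.0068) rose with the type II receptors Acvr2a (0.59 ± 0.12, adjusted p = 0.00383) and Bmpr2 (1.18 ± 0.27, adjusted p = 0.00662). Eng, the co-receptor endoglin, fell by 1.09 ± 0.26 (adjusted p = 0.0087), and it is named after its value was seen. Of 7 tested Smads and Smurfs 3 rose and 1 fell. Smad1, which carries the BMP signal, had mean signals of 254 ± 11.3 in LIF, 239.6 ± 7.48 in LIF plus lithium, 397 ± 67.1 in LIF-free and 380.0 ± 16.6 in LIF-free plus lithium (SD, n = 3). Its 6 values without LIF lay above the 6 with it (average log2 change 0.65 ± 0.10, adjusted p = 0.000385). The inhibitory Smad6, itself a BMP target, rose (1.45 ± 0.29, adjusted p = 0.00304), as did Smurf2, a ubiquitin ligase for Smads (0.43 ± 0.09, adjusted p = 0.00494). Smad7, the inhibitor shared with TGF-beta signalling, fell by 0.59 ± 0.16 (adjusted p = 0.014). After median centring the calls of Acvr2a, Acvr1, Bmpr1a, Smad1 and Smurf2 ended (adjusted p = 0.1, 0.199, 0.0949, 0.0595 and 0.217).

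Of 9 tested antagonists and extracellular modulators besides Grem1, 5 rose and 0 fell on average. Cer1, a secreted antagonist of Nodal and BMP, rose from low signals (log2 change 2.47 ± 0.53, adjusted p = 0.00466, or 0.89 with 16 signal units added). Its mean signals in both groups with LIF were under the tested limit. It passed the filter through the groups without LIF, so its call is no support. Fst, the activin and BMP binder follistatin, rose by 1.68 ± 0.36 (adjusted p = 0.00439) and Bambi, a pseudoreceptor that BMP induces, by 1.14 ± 0.22 (adjusted p = 0.00265). Fstl1, a secreted follistatin-like protein, rose by 0.34 ± 0.08 (adjusted p = 0.00853), a call that ended after median centring (adjusted p = 0.37). Bmp1, a protease that cleaves chordin and is no BMP ligand, rose by 1.50 ± 0.44 (adjusted p = 0.0234) and is named after its value was seen. Its call ended with the mean over its probe sets (log2 change 0.61, adjusted p = 0.215) and with any of 6 single arrays left out, at most at an adjusted p of 0.0603 without LIF-free replicate 2. Nog, the antagonist noggin, did not pass (0.48 ± 0.61, adjusted p = 0.632).

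Of 4 other tested ligands, Bmp8b rose (log2 change 1.12 ± 0.33, adjusted p = 0.024) and Bmp6 fell by 1.66 ± 0.54 (adjusted p = 0.0398). Each of the 2 calls ended with single arrays left out, 6 for Bmp8b (at most 0.0637 without LIF-free plus lithium replicate 1) and 8 for Bmp6 (at most 0.0875 without LIF-free replicate 1). That of Bmp6 also ended without a filter (adjusted p = 0.0683) or without an intensity trend (adjusted p = 0.0556). Bmp6 had mean log2 signals under the tested limit in both groups without LIF and passed the filter through the groups with LIF. Its call is therefore no support, and its average log2 change ran from -1.95 to -0.61 over the alternatives. Of 6 other tested targets 4 rose and 1 fell. Gata3, a factor of trophoblast and surface ectoderm, had signals of 9.14 to 16.4 in LIF, 11.0 to 21.8 in LIF plus lithium, 36.6 to 73.7 in LIF-free and 49.9 to 85.8 in LIF-free plus lithium, and the groups with and without LIF did not overlap (average log2 change 2.12 ± 0.26, adjusted p = 0.000118). Gata2 (1.07 ± 0.21, adjusted p = 0.00273), Hand1, a factor of trophoblast and lateral mesoderm (1.47 ± 0.31, adjusted p = 0.00385), and Dlx3, of trophoblast and skin (1.25 ± 0.31, adjusted p = 0.00947), rose too. The call of Dlx3 ended with the mean over its probe sets (log2 change 0.54, adjusted p = 0.211). Gata3 and Hand1 are also in the trophoblast marker list above.

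Id4, the family member of neural progenitors, went the other way from Id1, Id2 and Id3 on average. It had mean signals of 103 ± 14.9 in LIF, 126 ± 22.6 in LIF plus lithium, 91.0 ± 14.8 in LIF-free and 77.0 ± 6.28 in LIF-free plus lithium (SD, n = 3), and LIF and LIF-free arrays overlapped. The groups with lithium did not overlap. The change of Id4 did not pass without lithium (adjusted p = 0.635) and passed with lithium (adjusted p = 0.0331). Its average log2 change was -0.44 ± 0.14 (adjusted p = 0.0324). The average call ended after median centring (adjusted p = 0.145) and with any of 5 single arrays left out, at most at an adjusted p of 0.0876 without LIF plus lithium replicate 2. Of 3 tested E-protein partners of Id, Tcf12 rose (0.83 ± 0.13, adjusted p = 0.000513) and 0 fell. The call of Tcf12 ended with the mean over its probe sets (adjusted p = 0.097).

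**Figure D4:**
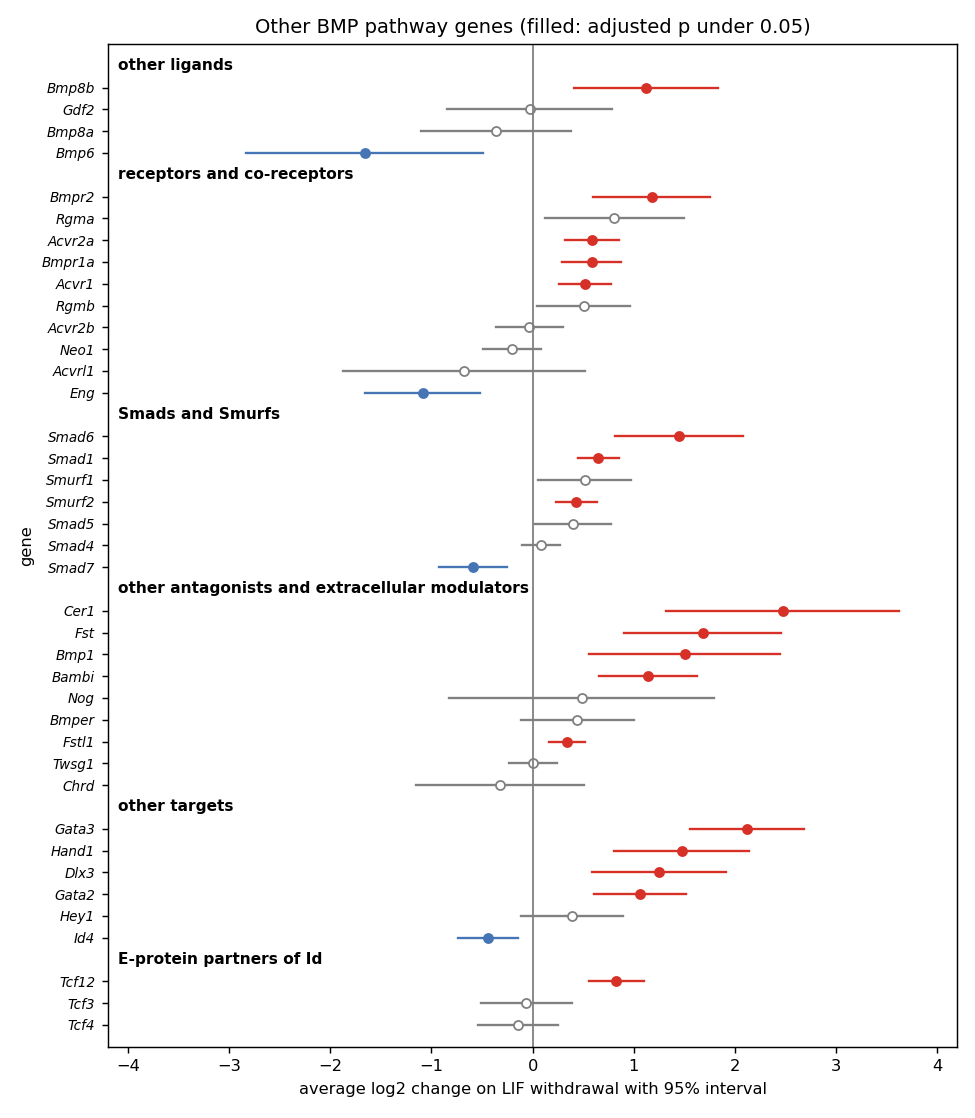
Average log2 change on LIF withdrawal for the 39 tested genes of the 6 lists, with 95% intervals from limma. Filled points passed an adjusted p of 0.05 (red, 18 higher; blue, 4 lower) and open points did not; Cer1 and Gata3 lie farthest to the right, and Bmp6 and Eng farthest to the left among filled points.

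The genes most like Bmp4 and Id1 were sought over 12208 genes by the root mean square difference in log2 signal over the 12 arrays, each gene centred on its own mean. Nearest to Bmp4 were Cyb5d1 (0.17), Bcl9l (0.19) and Zfyve19 (0.19), where the signal of Bmp4 itself deviated from its mean by 0.42. Nearest to Id1 were Kalrn (0.18), Zadh2 (0.19) and Micall1 (0.19), where Id1 deviated by 0.51. These arrays share their scaling and LIF status, and the distances are descriptions.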

How the data were processed

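Each array was deposited as 1 signal intensity per probe set, not on a log scale. Per the submitters' processing notes the authors used MAS5, with no version or settings given. Scaling of each array to a common target was seen in the values: the mean without the lowest and highest 2% was 100.001 on each array. The 12 arrays come from 4 groups of 3.

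From these, 64 control probe sets were left out, a floor of 1 was set (0.146% of tested values were lower) and log2 was taken. Sets with a mean log2 signal above the 40th percentile (2.91, a signal of 7.52) were tested. A group-means model over all 12 arrays was fitted with limma 3.58.1 in R 4.3.3 (functions lmFit and eBayes, trend on intensity, with 8 residual degrees of freedom). Tests were two-sided, with p-values adjusted by Benjamini-Hochberg over 27022 sets at a threshold of 0.05. With 3 arrays against 3, a permutation test cannot go under 0.1. The 6 comparisons were LIF withdrawal without lithium, with lithium and on average, lithium with and without LIF, and the interaction. The number of arrays limits the precision. The script was tested on simulated data.

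Symbols came from the platform annotation, with 1 symbol for 34945 sets, several for 932 and none for 9160, and 34741 matched a RefSeq gene table by gene ID, which changed 0. No set with several symbols was named. The 10 genes and all lists were chosen with earlier results of these data known. The 10 were named whatever their values. Of the other pathway genes, up to 4 per list with the smallest p among those past the threshold were named, with Bmpr1a, Smad1, Smad6, Nog and Id4 whatever their values. Up to 3 genes were named for likeness to Bmp4 and Id1.

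Pairing by replicate number was checked through correlations of array residuals from their group means, and a pair of groups was accepted where all 3 passed 0.1. The correlations for replicates 1, 2 and 3 were 0.438, 0.137 and 0.339 (LIF and LIF-free), 0.499, 0.139 and 0.321 (LIF and LIF plus lithium) and 0.462, 0.111 and 0.3 (LIF-free and LIF-free plus lithium), which were accepted. LIF plus lithium and LIF-free plus lithium gave 0.451, 0.0972 and 0.379 and were not. Alternatives were quantile normalisation, median centring, 16 signal units added, no filter or one at the 60th percentile, the replicate block, no trend, array weights, only the compared arrays, other choices of probe set, and leaving out each array. Plots used Python 3.11.15 and matplotlib 3.10.9.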

Additional observations from a re-analysis of the deposited data

How the results depend on the processing

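No result changed its direction after passing the threshold in either fit. Among the 10 genes, the direction of a change that had not passed differed from that as analysed in 6 of 228 combinations of gene and alternative for LIF withdrawal without lithium (all Grem1), in 0 of 228 with lithium and in 0 of 218 on average. In lithium with LIF it differed in 18 of 228, in lithium without LIF in 31 of 228 and in the interaction in 28 of 218. The calls of Bmp2, Bmp5, Id1, Id2, Id3 and Msx2 on average held under every alternative run. That of Msx1 ended under 1 of them, the choice that leaves out sets with shared probes (adjusted p = 0.316); its call with lithium ended there too (0.708).

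Of the 10 genes, 4 passed without lithium, joined by Bmp5 and Msx1 with the replicate block, and 8 passed with array weights. The count with 1 array left out was 3 to 6 without lithium, 4 to 9 with lithium (7 as analysed) and 7 to 9 on average. The other pathway genes that passed without lithium, 8 as analysed, were 4 without a filter, 16 with the replicate block, 3 without a trend, 22 with array weights, 3 with only the compared arrays, and 1 to 13 with 1 array left out. With lithium, 13 became 3 after median centring, 23 with array weights and 2 to 16 with 1 array left out.

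Over all probe sets, the 2515 of withdrawal without lithium became 1560 after median centring, 5260 with the replicate block, 1674 without a trend, 7870 with array weights, 1168 with only the compared arrays and 1039 to 3950 with 1 array left out. The 3368 with lithium became 1490 after median centring, 5938 with the block, 6887 with array weights and 1360 to 4311 with 1 array left out. The 6678 on average became 3690 after median centring and 10859 with array weights. Lithium with LIF gave 0 to 2 sets with 1 array left out, the 2 without LIF plus lithium replicate 1.

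Where the replicate number was not accepted as pairing, the block gave calls to Bmp7 (adjusted p = 0.0471) and Grem1 (0.0328) with lithium, and to Bmp4 (0.0264) and Bmp7 (0.0214) on average, and it ended no call of the 10 genes. The cause of these moves was not tested. Signals near the filter (Bmp5 and Grem1) limit how well the size of a log2 change is known.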
